A study of Mus musculus with 62 samples.

Results

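RNA-seq of C2C12 cells that overexpress RPL3 (RPL3 OE cells) was compared with that of cells infected with the empty retrovirus (control cells). C2C12 is a line of mouse myoblasts, and all cells compared had been infected with a retrovirus that confers resistance to puromycin, selected with the drug and kept at low density in growth conditions. The virus of RPL3 OE cells encoded mouse RPL3, that of control cells encoded no added protein, and that of RPL3L OE cells, which served only to place single results, encoded mouse RPL3L. The libraries compared are 6 of the 62 samples of the series, with 3 RPL3 OE and 3 control cultures, and 3 RPL3L OE cultures shared the estimate of the spread. The labels do not say whether the cultures of a group came from separate infections, and p-values then measure only the spread between these cultures.

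For each gene, the transcript with the highest mean count in the 6 libraries was read, which gave 10476 genes, and the 5728 with a mean of at least 10 counts in the C2C12 libraries were tested. The other 4748 genes were too low to be tested. All transcripts in use lie on the plus strand of the genome (GRCm38), so that *Rpl3* itself, on the minus strand, is not analysed here and the overexpression could not be read from its own mRNA. Total counts were 14324795 to 29746110 in control cultures and 7647102 to 11669868 in RPL3 OE cultures, so that depth differs with the group and cannot be told apart from it. Scaling factors (TMM, which sets the libraries to a common composition) lay between 0.9909 and 1.009, and pairs of libraries correlated at 0.992 to 0.996 on the log2 scale of CPM, the counts scaled to library size. Counts of the replicates of a group differed by more than sampling noise.

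RPL3 is a protein of the large ribosomal subunit that reaches close to the peptidyl transferase centre, where peptide bonds are made. RPL3L is its paralog in heart and skeletal muscle, where it can take the place of RPL3 in the ribosome. Proliferating myoblasts are committed to muscle by MYOD1, a basic helix-loop-helix transcription factor that binds E-boxes, and they start to make the contractile apparatus when they leave the cell cycle. Collagens and the other proteins of the extracellular matrix are made by mesenchymal cells of many kinds, myoblasts among them.

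The gene for RPL3L was close to silent in both groups compared. Its longer isoform (chromosome 17, 24727820 to 24736143) had 9, 5 and 5 counts in control and 1, 7 and 3 in RPL3 OE cultures, against 16434, 17915 and 19389 counts in RPL3L OE cultures. The shorter isoform (24732685 to 24736143) had 7, 5 and 4, then 1, 3 and 3, and then 11673, 12703 and 13610 counts. The libraries labelled RPL3L OE thus stand apart from the other 6 in *Rpl3l*, as their label says, and the labels of RPL3 OE cultures could not be checked in this way.

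RPL3 OE cells differed from control cells in the mRNAs of 999 genes, or 17.4% of those tested, at an adjusted p under 0.05 (quasi-likelihood test of edgeR with Benjamini-Hochberg adjustment). Of these, 519 were higher in RPL3 OE cells (9.06% of those tested) and 480 were lower (8.38%). The typical change of a called gene was modest, 0.291 on the log2 scale in the median of absolute values. A change of at least 1.5-fold was found for 211 genes, 92 higher and 119 lower, and one of at least 2-fold for 95 genes, 38 higher and 57 lower. The RPL3 OE and control cultures did not overlap for 933 of the 999 genes, against 31.7% of all genes tested. Tested against a change of 1.2-fold rather than 0, 207 genes passed, 94 higher and 113 lower, and with every transcript kept in place of 1 per gene 2323 of 14432 transcripts passed.

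**Figure D1:**
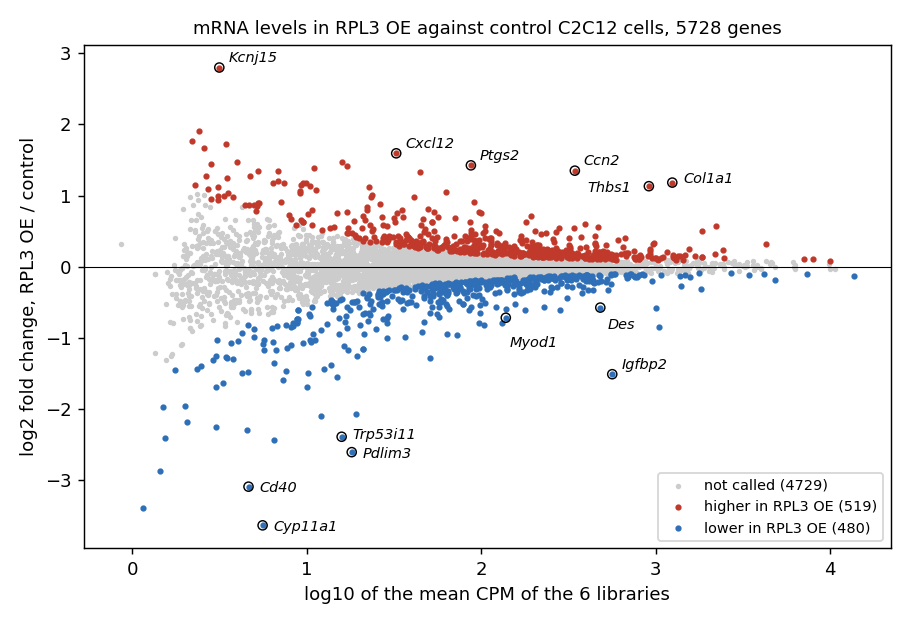
Log2 fold change of each tested gene in RPL3 OE against control cells (vertical axis) by the log10 of its mean CPM in the 6 libraries (horizontal axis). Of 5728 genes, 519 were higher (red), 480 lower (blue) and 4729 not called (grey), and circles mark the genes named in the plot. Genes with a high level pass at small changes, while *Kcnj15* and *Cyp11a1* stand far out at a low level.

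Among genes with at least 100 counts on average, the largest increase was that of *Cxcl12*. *Cxcl12* (chromosome 6, 117168577 to 117181367) encodes a chemokine that draws CXCR4-bearing cells. Its level was 16.9, 14.9 and 16.9 CPM in control and 43, 50.2 and 53.8 CPM in RPL3 OE cultures, a 3.02-fold increase (log2 fold change 1.59 ± 0.12 SE, adjusted p = 4.41e-17). *Ptgs2* (chromosome 1, 150100031 to 150108227), the inducible cyclooxygenase of prostaglandin synthesis, had 50.9, 46.5 and 45.9 CPM in control and 126, 113 and 142 CPM in RPL3 OE cultures (log2 fold change 1.43 ± 0.08, adjusted p = 8.84e-24). In both genes the lowest RPL3 OE culture lay far above the highest control culture.

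*Ccn2* (chromosome 10, 24595442 to 24598678), which encodes connective tissue growth factor and is a target of YAP and of TGF-β signalling, rose from 185, 204 and 194 CPM to 490, 473 and 520 CPM (log2 fold change 1.35 ± 0.04, adjusted p = 8.56e-36). Of its exon bases 22.6% are shared with a gene on the other strand, and the strand setting of the counting is not given in the sources used here. *Thbs1* (chromosome 2, 118111876 to 118127133) encodes thrombospondin 1, a secreted glycoprotein that can activate latent TGF-β. It rose from 568, 595 and 557 CPM to 1237, 1268 and 1259 CPM (log2 fold change 1.13 ± 0.04, adjusted p = 9.09e-37). The other genes among the 10 largest increases were *Tdrkh* (1.34), *Col1a1* (1.18), *Dysf*, for the membrane-repair protein dysferlin (1.13), *Crim1* (1.05), *Plscr2* (1.00) and *Gulp1*, an adaptor for the uptake of dying cells (0.98). All 10 were called, and by the rule that picked them their groups do not overlap.

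The largest decrease among such genes was that of *Pdlim3* (chromosome 8, 45885461 to 45919548), which encodes a PDZ and LIM domain protein that binds α-actinin at the Z disk of muscle. It had 32.9, 32.9 and 27.8 CPM in control but 5.33, 5.02 and 4.84 CPM in RPL3 OE cultures (log2 fold change -2.61 ± 0.17, adjusted p = 8.01e-20). *Igfbp2* (chromosome 1, 72824503 to 72852474), a secreted protein that binds insulin-like growth factors, fell from 856, 822 and 826 CPM to 300.2, 295 and 284 CPM (log2 fold change -1.51 ± 0.04, adjusted p = 4.48e-41). The cultures of each group were close to each other in both genes, and the groups lay far apart.

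*Trp53i11*, named for its induction by p53, fell from 25, 27.3 and 27.9 CPM to 4.15, 5.02 and 5.81 CPM (log2 fold change -2.39, adjusted p = 3.05e-17). *Adgrg1*, an adhesion receptor of the G protein-coupled family, fell from 31.6, 32.7 and 28.7 CPM to 6.52, 6.07 and 8.71 CPM (-2.08). The others among the 10 largest decreases were *Stmn4*, of the stathmin family of tubulin-binding proteins (-1.55), *Zfp600* (-1.38), *Add2*, a subunit of the membrane-skeleton protein adducin (-1.29), *Robo1*, a receptor for Slit proteins (-1.25), *Pde10a*, a cyclic nucleotide phosphodiesterase (-1.18), and *Milr1* (-1.15). *Zfp600* belongs to a family of near-identical zinc finger genes between which reads can be split, and its value is uncertain. *Add2* shares 15.6% of its exon bases with a gene on the other strand.

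Below a mean of 100 counts, the largest increases were those of the potassium channel gene *Kcnj15* (2.80), *Stard8* (1.90), *Apob* (1.77) and *Tg* (1.73). Over the fits without 1 library they ran from 2.35 to 3.27, 1.72 to 2.18, 1.69 to 1.95 and 1.51 to 1.92, in that order. *Cyp11a1*, which encodes the side-chain cleavage enzyme that starts steroid hormone synthesis, had 75, 65 and 135 counts in control and 5, 0 and 5 counts in RPL3 OE cultures (log2 fold change -3.64 ± 0.37, adjusted p = 5.57e-12). *Cd40*, a receptor of the tumour necrosis factor family, had 52, 51 and 126 counts in control and 5, 1 and 6 counts in RPL3 OE cultures (-3.09 ± 0.37, adjusted p = 7.31e-10). *Art3* and *Adora2a* complete the 4 largest decreases. *Art3* had 13, 20 and 17 counts in control and 2, 0 and 0 counts in RPL3 OE cultures, a mean of 8.67 that is under the filter of 10, and it was tested only because the RPL3L OE cultures held 26, 28 and 30 counts. *Adora2a* had 19, 16 and 32 counts in control and 1, 2 and 1 counts in RPL3 OE cultures. With so few counts, no fold of RPL3 OE against control is given for these 2 genes.

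The muscle identity of the cultures was read from a list of myoblast markers. Of its 16 genes 8 are in the table and 7 were tested, and all 7 were present in every control culture and fell in RPL3 OE cells, with a median log2 fold change of -0.53 against -0.00181 over all genes. Their summed level was 2202 to 2280 CPM in control and 1582 to 1685 CPM in RPL3 OE cultures, so that the groups did not overlap. In bulk samples fewer cells of a type and less RNA per cell cannot be told apart. The list was chosen with earlier results of these data known, and 8.38% of all genes tested were lower.

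*Myod1* (chromosome 7, 46376474 to 46379099), for the factor that commits cells to muscle, fell from 189, 156 and 171 CPM to 109, 110 and 96.6 CPM (log2 fold change -0.72 ± 0.06, adjusted p = 1.61e-14). *Cdon*, for a cell surface receptor that promotes myogenesis, fell from 199, 169 and 186 CPM to 124, 139 and 123 CPM (-0.53). *Cdh15*, for M-cadherin, the adhesion protein of myoblasts, fell from 355, 358 and 354 CPM to 279, 270 and 243 CPM (-0.44). In these 3 genes each RPL3 OE culture was below each control culture. *Chrnd*, for the δ subunit of the acetylcholine receptor, had the largest decrease of the markers, from 138, 124 and 136 CPM to 80.9, 66.5 and 78.6 CPM (-0.81, adjusted p = 3.06e-15). *Itga7*, for the laminin-binding integrin α7 of muscle, fell from 483, 473 and 458 CPM to 418, 412 and 386 CPM (-0.22), and *Met*, the receptor for hepatocyte growth factor, changed by -0.27.

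*Des* (chromosome 1, 75360329 to 75368579) encodes desmin, the intermediate filament of muscle. Its level was 573, 573 and 582 CPM in control and 389, 402 and 371 CPM in RPL3 OE cultures (log2 fold change -0.58 ± 0.04, adjusted p = 8.01e-20). *Mylpf*, a fast skeletal myosin light chain, fell from 36.6, 41.3 and 41.5 CPM to 29.3, 27.2 and 29 CPM (-0.48, adjusted p = 0.000393). The promoters of *Pdlim3*, *Des* and *Mylpf* are shown because each holds the E-box CAGCTG, a form that MYOD1 and its relatives can bind, and that of *Myl9* because it holds a CArG box, the element to which serum response factor binds in genes of actin filaments. Each is the 250 bases before the RefSeq start on the plus strand of GRCm38.p6, from 5′ to 3′, with the motif in capitals, and lies at chr8:45885237-45885486 (*Pdlim3*), chr1:75360042-75360291 (*Des*), chr7:127211358-127211607 (*Mylpf*) and chr2:156775214-156775463 (*Myl9*). The motif starts 139, 36, 51 and 161 bases before the start, in that order.
Pdlim3: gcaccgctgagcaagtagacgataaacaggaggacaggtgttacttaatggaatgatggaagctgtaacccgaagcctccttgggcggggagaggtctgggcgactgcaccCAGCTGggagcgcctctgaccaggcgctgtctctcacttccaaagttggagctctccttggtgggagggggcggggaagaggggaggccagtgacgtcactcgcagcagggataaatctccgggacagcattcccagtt
Des: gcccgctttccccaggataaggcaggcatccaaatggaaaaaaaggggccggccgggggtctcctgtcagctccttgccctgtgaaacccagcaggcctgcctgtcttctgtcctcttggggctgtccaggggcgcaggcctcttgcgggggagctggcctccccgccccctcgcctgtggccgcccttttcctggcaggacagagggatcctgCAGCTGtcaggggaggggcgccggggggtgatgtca
Mylpf: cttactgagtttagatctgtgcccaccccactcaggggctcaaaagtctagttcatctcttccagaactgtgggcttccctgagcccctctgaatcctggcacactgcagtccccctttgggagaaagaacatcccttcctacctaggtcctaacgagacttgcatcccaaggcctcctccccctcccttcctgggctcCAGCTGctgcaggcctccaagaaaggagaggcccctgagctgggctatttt
Myl9: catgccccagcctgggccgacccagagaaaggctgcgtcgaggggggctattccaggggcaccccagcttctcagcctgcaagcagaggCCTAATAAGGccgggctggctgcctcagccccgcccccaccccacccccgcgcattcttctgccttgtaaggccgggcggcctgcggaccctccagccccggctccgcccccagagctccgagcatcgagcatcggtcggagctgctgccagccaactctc

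CAGCTG reads the same on both strands and was found in 11.2% of the 250-base promoters of the 4254 tested genes with a RefSeq start within 500 bases of the transcript's own. It was in 17.6% of 330 promoters of genes called lower and in 29.1% of the 79 with a decrease of at least 1.5-fold. Among genes called higher it was in 10.1% of 368, and in 15.3% of the 59 with an increase of at least 1.5-fold. The CArG box, searched on both strands like the motifs that follow, was in 1.22% of all promoters, 2.17% of those of genes called higher and 2.12% of those called lower, and in 3.39% and 1.27% of those changed by at least 1.5-fold upward and downward. TGACTCA, the AP-1 motif, was in 3.15% of all promoters, 4.35% of those called higher and 6.06% of those called lower, and in 5.08% and 10.1% at 1.5-fold. TATAAA was in 5.95%, 5.16% and 7.27%, and in 8.47% and 7.59% at 1.5-fold. These shares are descriptions of the letters in the window and were not tested.

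Among the regulators of myogenesis, 13 of 41 genes of the list were tested, with a median of -0.26. Of these 13 genes 7 were lower (53.8%, against 8.38% of all genes), 2 higher (15.4%, against 9.06%) and 4 not called. The lower genes *Myod1*, *Cdon*, *Cdh15* and *Itga7* are also myoblast markers, so that the 2 lists are not separate results. *Id1* and *Id3* encode helix-loop-helix proteins without a DNA-binding part, which hold MYOD1's partners away from DNA, and they fell together with *Myod1*. *Id3* went from 171, 125 and 139 CPM to 102, 99.8 and 93.1 CPM (log2 fold change -0.57 ± 0.07, adjusted p = 9.52e-09). *Id1* went from 124, 81.9 and 107 CPM to 83.9, 59.7 and 69.5 CPM (-0.57 ± 0.09, adjusted p = 7.66e-07), where the highest RPL3 OE culture overlapped the lowest control culture. *Cdkn1a*, for the cell cycle inhibitor p21, was also lower (-0.26). *Mbnl1*, for a splicing regulator of muscle, and *Mef2d*, for a MADS-box partner of MYOD1, were higher (0.28 and 0.18). *Myog*, which drives terminal differentiation, was at 2.52 to 5.21 CPM in all 6 libraries and was not called (-0.40, adjusted p = 0.394, and -0.13 without RPL3 OE replicate 3). The list's median turned to 0.16 when all transcripts of its genes were kept, and the call of *Mef2d* was lost without control replicate 2 or 3 and without RPL3 OE replicate 1 or 2, with a log2 fold change of 0.15 to 0.22 over these fits.

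Genes of the contractile apparatus were mostly low in these proliferating cells. *Des* is in this list and also among the myoblast markers. Of the 63 listed, 34 are in the table and 15 were tested, of which 4 fell (26.7%, against 8.38% of all genes), 2 rose (13.3%, against 9.06%) and 9 were not called, with a median of -0.15 that was 0.0282 without RPL3 OE replicate 3. Beside *Des* and *Mylpf*, the decreases were those of *Tnnt3*, for fast skeletal troponin T, from 13.6, 14.4 and 14.3 CPM to 7.7, 9.77 and 5.23 CPM (log2 fold change -0.94), and of *Tnnc1*, for slow and cardiac troponin C, from 21.7, 24.2 and 19.3 CPM to 13.3, 11.9 and 16.3 CPM (-0.61). The increases were small and fell on isoforms that are not fast skeletal ones, *Tnnt2*, for cardiac troponin T, which embryonic muscle also makes (0.16), and *Tpm3*, for slow tropomyosin, with a cytoskeletal form (0.10). The call of *Tpm3* was lost without control replicate 1 or 3 or RPL3 OE replicate 1 or 3 (0.088 to 0.118 over the fits without 1 library).

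**Figure D2:**
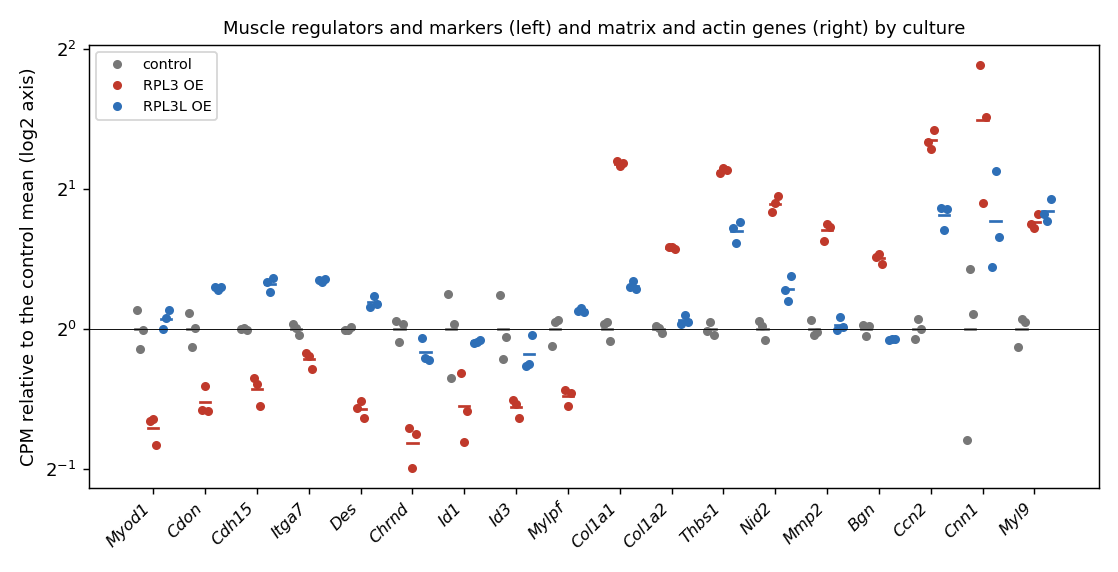
Level of 18 genes in each culture relative to the control mean (points, log2 axis; bars, means of 3 cultures) for control, RPL3 OE and RPL3L OE cells. The 9 muscle regulators and markers on the left are below the control mean in all 3 RPL3 OE cultures, and the 9 matrix and actin genes on the right are above it. The genes were picked with their directions known, so that this split is set by the choice. Called genes of the same lists that went the other way, such as *Nid1*, *Loxl2*, *Flnc*, *Mbnl1* and *Tnnt2*, are not shown.

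Genes of the extracellular matrix were mostly higher in RPL3 OE cells. Of the 85 listed 49 are in the table and 37 were tested, with a median of 0.18. Of these 37 genes 19 rose (51.4%, against 9.06% of all genes), 5 fell (13.5%, against 8.38%) and 13 were not called. The summed level went from 17250 to 17680 CPM in control to 20380 to 20890 CPM in RPL3 OE cultures. Type I collagen, the main fibre of connective tissue, is built of the products of *Col1a1* and *Col1a2*, and both rose. *Col1a1* (chromosome 11, 94936224 to 94953042) had 779.7, 791 and 718 CPM in control and 1750, 1704 and 1730 CPM in RPL3 OE cultures (log2 fold change 1.18 ± 0.03, adjusted p = 1.27e-38). *Col1a2* (chromosome 6, 4505493 to 4541544) had 1802, 1789 and 1746 CPM in control and 2662, 2666 and 2636 CPM in RPL3 OE cultures (0.58 ± 0.03). The cultures of each group lay within a narrow band in both genes.

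Further members of the fibre-forming matrix rose, among them *Col5a1*, for a collagen that starts type I fibres (0.55), *Bgn*, for the small proteoglycan biglycan (0.50), and *Adamts2*, for the enzyme that trims procollagen (0.57). So did the matrix-degrading enzyme genes *Mmp2* (0.71) and *Mmp14* (0.43), of which the second activates the product of the first. *Adamts12* rose from a low level of 3.55, 3.95 and 4 CPM to 11, 7.66 and 10.8 CPM (1.35). The nidogens, which link laminin and collagen IV in the basement membrane, went opposite ways. *Nid2* rose from 66.5, 64.6 and 60.3 CPM to 114, 119 and 123 CPM (0.91), while *Nid1* fell from 1254, 1187 and 1154 CPM to 809.6, 757 and 837 CPM (-0.58, adjusted p = 6.21e-21).

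The other decreases in the list were those of *Loxl2*, for a lysyl oxidase that cross-links collagen, from 78.3, 85.5 and 85.2 CPM to 51.6, 38.8 and 40.5 CPM (log2 fold change -0.95), of *Fbln1* (-0.60), of *Spp1*, for osteopontin (-0.19), and of *Mmp10*. *Mmp10* was low, at 6.1, 4.9 and 4.53 CPM in control and 0.296, 0.264 and 2.13 CPM in RPL3 OE cultures, and its log2 fold change of -2.26 was -4.08 without RPL3 OE replicate 3.

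The list of actin, myosin and smooth muscle genes also rose (median 0.18). It holds, too, *Ccn2*, *Amotl2*, *S100a4*, *S100a6*, *S100a10* and *S100a11*, which encode other kinds of proteins and were all called higher. Of 19 tested genes 12 were higher (63.2%, against 9.06% of all genes), 1 lower (5.26%, against 8.38%) and 6 not called. Their summed level was 28260 to 29490 CPM in control and 31790 to 32370 CPM in RPL3 OE cultures. *Myl9*, for a regulatory light chain of smooth and non-muscle myosin, rose from 65.9, 75.4 and 74.6 CPM to 121, 119 and 127 CPM (log2 fold change 0.76 ± 0.07, adjusted p = 1.12e-14). *Cnn1*, for the smooth muscle protein calponin 1, rose from 4.82, 11.2 and 8.98 CPM to 30.8, 15.6 and 23.8 CPM (1.47), with the widest spread of these genes. *Amotl2*, for a regulator of YAP at cell junctions, rose (0.50), as did *Cnn2* (0.33), *Cnn3* (0.26) and the small calcium-binding protein genes *S100a4* (0.31), *S100a10* (0.24), *S100a6* (0.24) and *S100a11* (0.18). *Flnc*, for the filamin of striated muscle, was the gene called lower (-0.15), and its call was lost without control replicate 1 or RPL3 OE replicate 2 or 3 (-0.18 to -0.13 over the fits without 1 library).

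**Figure D3:**
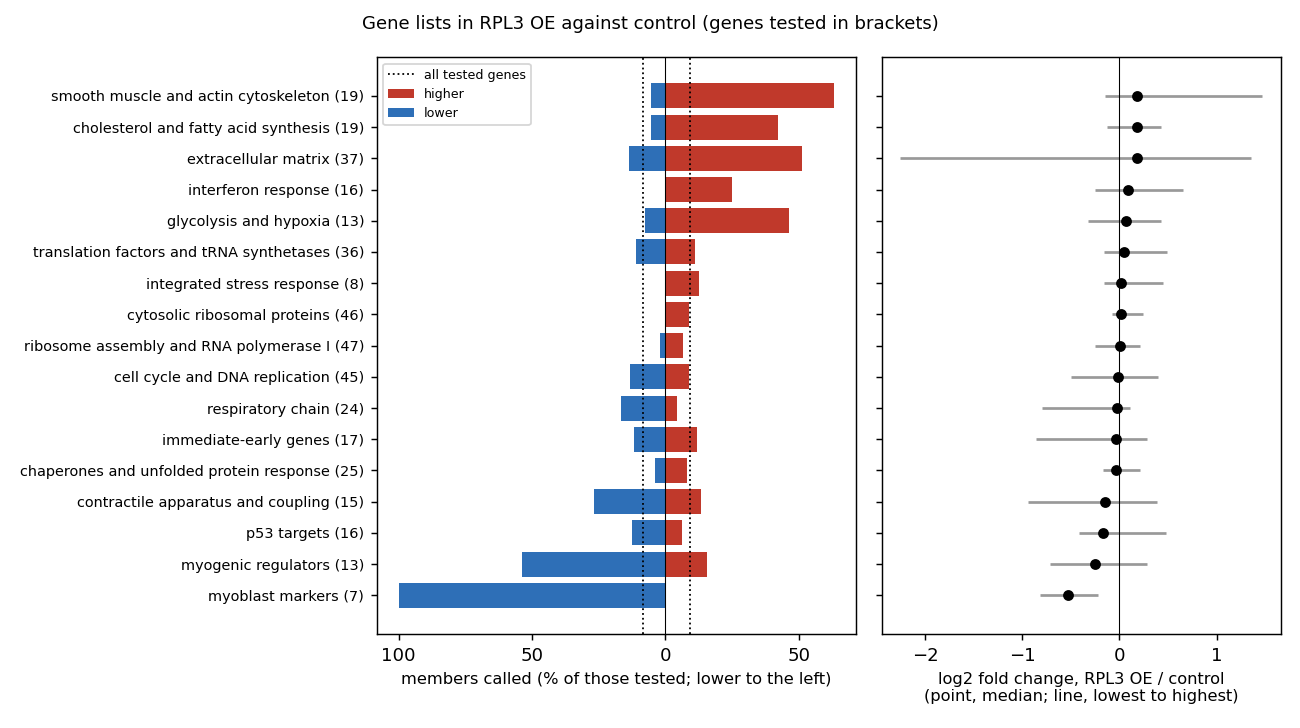
Share of the tested members of each gene list that were higher (red, to the right) or lower (blue, to the left) in RPL3 OE cells, with dotted lines at the shares over all genes (9.06% and 8.38%), and, in the right panel, the median (point) and the range (line) of their log2 fold changes. Myoblast markers stand at one end with all 7 lower, and the actin, sterol and matrix lists at the other with medians of 0.18.

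Genes of sterol and fatty acid synthesis were partly higher. Of 19 genes tested in the list 8 were higher (42.1%, against 9.06% of all genes), 1 lower (5.26%, against 8.38%) and 10 not called (median 0.18). The summed level was 3676 to 3883 CPM in control and 3913 to 4241 CPM in RPL3 OE cultures. The increases included *Mvk*, for mevalonate kinase (0.43), and *Lss*, for the enzyme that closes the sterol rings (0.43). *Mvk* had 71.5, 65.1 and 69.5 CPM in control and 88.9, 103 and 87.5 CPM in RPL3 OE cultures, without overlap. *Sqle*, for the epoxidase ahead of *Lss* in the pathway, was called lower (-0.13), with overlapping groups, and its call was lost without control replicate 2 or 3 or RPL3 OE replicate 1 or 3, with -0.08 in the last of these.

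Of 13 tested genes of glycolysis and hypoxia 6 were higher (46.2%, against 9.06% of all genes), 1 lower (7.69%, against 8.38%) and 6 not called (median 0.063). *Pdk1*, for the kinase that keeps pyruvate out of mitochondria (0.43), *Slc16a3*, for a lactate exporter (0.42), *Eno3*, for the muscle form of enolase (0.32), and *Pgam1*, for phosphoglycerate mutase (0.21), led the increases. *Slc2a1*, for the glucose transporter GLUT1, was lower (-0.16). The call of *Slc16a3* was lost without RPL3 OE replicate 2 (0.32).

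The mRNAs of ribosomal proteins that could be read changed little in RNA-seq. Of 84 listed genes for cytosolic ribosomal proteins 47 are in the table and 46 were tested. Of these 42 were not called, 4 were higher and 0 were lower, and the median was 0.017, within a range of -0.08 to 0.25. The 4 were *Rpl22l1* (0.25), *Rpl17* (0.14), *Rpsa* (0.10) and *Rplp0* (0.08), and such genes share reads with processed pseudogenes where multiple mappings are counted. *Rpl22l1*, the paralog of *Rpl22*, also shares 28.8% of its exon bases with a gene on the other strand. *Rplp0* lost its call without control replicate 1 or 3 or RPL3 OE replicate 1 or 2 (0.064 to 0.108 over the fits without 1 library), *Rpl17* lost it without control replicate 1 (0.10), and *Rpsa* lost it without RPL3 OE replicate 2 (0.089 to 0.125). The share called higher in RNA-seq is close to the 9.06% of all genes. In Ribo-seq 4 of 45 tested genes of the list were lower and 1 higher, against 6.59% and 5.25% of all genes. Their Ribo-seq median was -0.0858, against -0.00204 over the genes tested in both assays.

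Ribosome assembly factors and RNA polymerase I had 3 genes higher and 1 lower of 47 tested (median 0.00129). These are 6.38% and 2.13%, against 9.06% and 8.38% of all genes. The decrease was that of *Ddx47*, for an RNA helicase of rRNA processing (-0.25). The increase of *Nop10* (0.21) was not called without control replicate 3 or RPL3 OE replicate 1 (0.13 in the latter), that of *Nmd3* (0.17) without control replicate 3 or RPL3 OE replicate 3, and that of *Nop56* (0.13) without RPL3 OE replicate 1. Translation factors and tRNA synthetases had 4 higher, 4 lower and 28 not called (median 0.0497), or 11.1% each way, close to the shares of all genes. The largest of these was *Eif2s1*, for the α subunit of the initiation factor eIF2 (0.22), a gene on chromosome 12, and *Eef2*, for the factor that moves the ribosome along the mRNA, was lower by a small amount (-0.11), a call lost without RPL3 OE replicate 3 (-0.09).

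Targets of p53, which is stabilized when ribosome assembly is disturbed, had 1 gene higher (6.25%) and 2 lower (12.5%) of 16 tested, against 9.06% and 8.38% of all genes. Their median of -0.17 was -0.0874 without RPL3 OE replicate 3 and -0.071 among genes with a mean of at least 100 counts. In Ribo-seq the median was 0.0304, with 5 of the 16 lower and 0 higher, against 6.59% and 5.25% of all genes there. *Cdkn1a*, a classical target, was at 119, 127 and 109 CPM in control and 100.5, 93.5 and 101 CPM in RPL3 OE cultures. Of 38 listed targets of the integrated stress response 8 were tested, and *Herpud1* was the one called, higher by 0.24. This is 12.5% higher and 0% lower, against 9.06% and 8.38% of all genes. The call of *Herpud1* was lost without control replicate 3 or RPL3 OE replicate 1, and *Atf4* and *Ddit3* were not called. Of 45 tested cell cycle and replication genes 35 were not called, 4 were higher (8.89%, against 9.06% of all genes) and 6 lower (13.3%, against 8.38%), with a median of -0.0138. *E2f2* (-0.50) and *Ccnd3*, for cyclin D3 (-0.23), led the decreases, and *Cdkn3* led the increases (0.40), with a call lost without RPL3 OE replicate 1 (0.32). *Ccnd3* shares 18.2% of its exon bases with a gene on the other strand.

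The remaining lists each gave at most 5 called genes. Respiratory chain genes had 1 higher (4.17%) and 4 lower (16.7%) of 24 tested, against 9.06% and 8.38% of all genes. None of these calls reached 1.2-fold, the list's median was -0.0207, and most of the calls were lost in some fits without 1 library. Chaperones had 2 higher (8%) and 1 lower (4%) of 25. Immediate-early genes had 2 higher (*Myc* 0.28 and *Egr1* 0.28) and 2 lower (*Dusp2* -0.84 and *Maff* -0.57) of 17, or 11.8% each way. Interferon-responsive genes had 4 higher and 0 lower of 16 tested (25% higher, against 9.06% of all genes). Of these, *H2-D1* (0.21) lost its call without control replicate 3, *Parp9* (0.66) without that library or RPL3 OE replicate 2 or 3, and *Irf1* (0.27) without any 1 of the 6 libraries but control replicate 2. The call of *Dusp2* was lost without RPL3 OE replicate 2 (-0.68).

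Markers of other cell types were checked for cells that do not belong in the cultures. Of the osteoblast and cartilage list only *Sox9* was high enough to be tested, and it fell from 110, 108 and 113 CPM to 85, 87.4 and 79.7 CPM (log2 fold change -0.40). Of the adipocyte list 3 of 9 genes in the table were tested, *Adipoq*, *Cidea*, *Lep*, *Retn* and *Cfd* had 0 counts in all 6 libraries, and *Lpl* was lower (-1.29), a call that was lost without RPL3 OE replicate 2 (-0.87). Of 12 genes in the table for blood, endothelial, epithelial and neural cells 2 were tested, and the summed level of the list was 346.2 to 357.5 CPM in control and 313.2 to 337.4 CPM in RPL3 OE cultures. These were the tubulin gene *Tubb3*, which was not called, and *Hba-a1*, which was lower (-0.38) and shares reads with its near-identical copy. Their part in the changes of matrix and muscle genes was not tested.

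Genes of chromosome 12 were shifted upward in RPL3 OE cells. Its 215 tested genes are 3.75% of those tested but gave 89 of the 519 genes called higher (17.1%) and 3 of the 480 called lower. The median log2 fold change on the chromosome was 0.169, a 1.12-fold increase, and 185 of the 215 genes (86%) were above 0. On the other 19 chromosomes the medians ran from -0.0629 (chromosome 6) to 0.0775 (chromosome 3), the share above 0 from 32.6 to 75.3%, and the share called from 11 to 22.5%, against 42.8% on chromosome 12. Nearly all of the increases were small, with 86 of the 89 under 1.5-fold.

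The shift ran along the whole chromosome. In 12 consecutive stretches of 10 Mb, with 4 to 37 genes each, the median lay between 0.117 and 0.27, and among the 172 genes with at least 100 counts on average 161 were above 0. Each RPL3 OE culture showed it, with medians of 0.177, 0.177 and 0.165 against the mean of the controls, while the single control cultures lay at -0.00558, 0.0111 and 0.00597. Ribo-seq libraries of RPL3 OE cells, made separately, gave 0.173, 0.173 and 0.177 for the genes of chromosome 12, against 0.018, -0.0112 and -0.00824 in control libraries. In RPL3L OE cells the medians for chromosome 12 were -0.0295, -0.0323 and -0.0334 in RNA-seq and 0.0184, 0.00278 and 0.02 in Ribo-seq. Other chromosomes were shifted in the RNA-seq of RPL3L OE cells. The medians were -0.0464, -0.0504 and -0.057 on chromosome 3 and 0.0513, 0.0612 and 0.0493 on chromosome 6. The number of copies of chromosome 12 in these cells was not measured here, and its part in the shift was not tested.

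Outside chromosome 12, 907 of 5513 genes were called (16.5%), 430 higher and 477 lower. The lists above hold few genes of the chromosome, 1 tested gene each in the matrix, cell cycle, glycolysis, chaperone, interferon and immediate-early lists and 3 each among the translation factors and the ribosome assembly factors. Smaller shifts were seen on several other chromosomes. Among those shifted upward were chromosomes 3 (50 genes higher and 5 lower), 5 (45 and 15) and 9 (43 and 14). Among those shifted downward were chromosomes 15 (13 higher and 36 lower, median -0.062), 6 (21 and 40), 1 (15 and 36) and 2 (29 and 57).

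**Figure D4:**
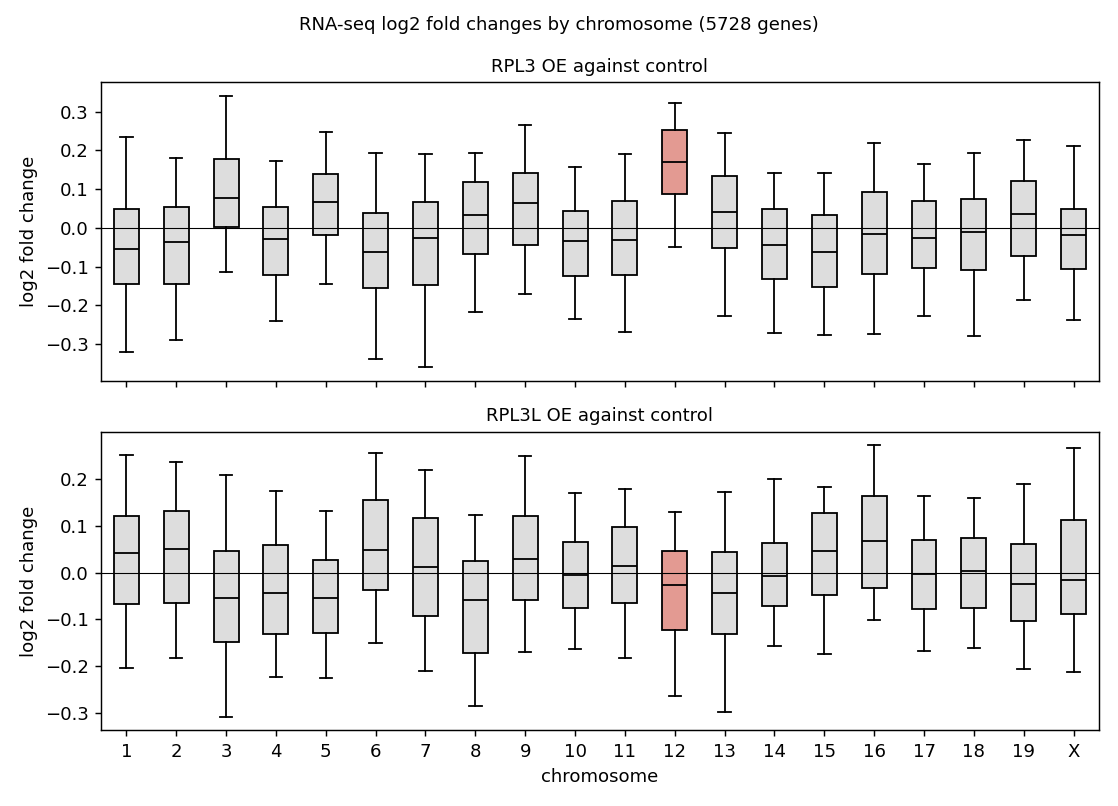
Log2 fold changes of the tested genes by chromosome in RPL3 OE (upper panel) and RPL3L OE cells (lower panel), both against the same control cultures (line, median; box, quartiles; whiskers, 10th to 90th percentile). Chromosome 12 is coloured, and its box, from 0.0882 to 0.252, lies above 0 in RPL3 OE cells, while its median in RPL3L OE cells is -0.026.

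Ribo-seq, which reads the mRNA fragments covered by ribosomes, was made from other libraries of the same kinds of cells. It played no part in the RNA-seq calls, while the gene lists were written with earlier results of these data known. Of 5600 genes tested in Ribo-seq, 294 were higher (5.25%) and 369 lower (6.59%) in RPL3 OE cells. Among the genes higher in RNA-seq 507 were tested in Ribo-seq, and 203 of them (40%) were higher and 0 lower there. Of 464 genes lower in RNA-seq, 200 (43.1%) were lower and 0 higher. The median log2 fold change in Ribo-seq was 0.211 for the first and -0.246 for the second, with 458 of 507 and 39 of 464 above 0. Whether libraries of the 2 assays with the same number came from 1 culture is not stated in the labels.

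The leading genes moved in footprints too. *Cxcl12* had a log2 fold change of 2.11 ± 0.15 in Ribo-seq, *Ptgs2* 1.22, *Ccn2* 1.04, *Col1a1* 0.81 and *Thbs1* 0.81. Among the decreases, *Trp53i11* was at -2.71 ± 0.35, *Adgrg1* at -2.43, *Pdlim3* at -2.13 and *Igfbp2* at -1.41. *Myod1* was at -0.73, *Des* at -0.63 and *Chrnd* at -0.97, and 6 of the 7 myoblast markers were called lower in Ribo-seq. The exception was *Met* (-0.16, adjusted p = 0.15). Of the matrix list 14 of 36 genes were higher and 4 lower in Ribo-seq, of the sterol list 9 of 19 were higher and 0 lower, and of the actin list 7 of 19 were higher and 0 lower. The median of the actin list was only 0.0272 in Ribo-seq. There *S100a4* was at -0.11, *S100a6* at -0.14, *S100a10* at -0.03 and *S100a11* at -0.09, none of which was called. *Robo1* was not called there (-0.55, adjusted p = 0.16), nor were *Mylpf* (-0.23) and *Tnnt3* (-0.60).

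**Figure D5:**
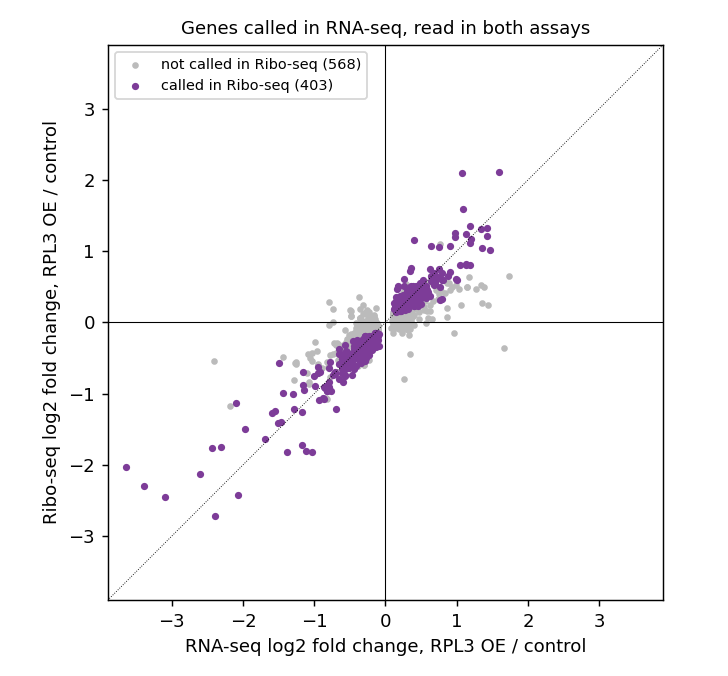
Log2 fold change in Ribo-seq (vertical axis) by that in RNA-seq (horizontal axis) for the genes called in RNA-seq and tested in both, each RPL3 OE against control, with a dotted line where the 2 are equal. Of these genes 403 were also called in Ribo-seq (purple) and 568 were not (grey), and the purple points lie in the upper right and lower left only.

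The leading genes were also compared between RPL3L OE and RPL3 OE cells by a direct test, which shares the RPL3 OE libraries and called 1586 genes (27.7% of those tested). Against control, RPL3L OE cells differed in 570 genes (9.95%), a count that was 354 without control replicate 3 and 376 without RPL3L OE replicate 2, and with the same control cultures as above. The genes are therefore given side by side and no overlap is read from them.

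All 7 tested myoblast markers were higher in RPL3L OE than in RPL3 OE cells. So were 380 of all 480 genes called lower in RPL3 OE against control cells, and both tests use the same RPL3 OE libraries. The difference is therefore not particular to the markers. *Myod1* was at 171, 181 and 188 CPM in RPL3L OE cultures, with a log2 difference from RPL3 OE of 0.79 (adjusted p = 4.3e-15) and from control of 0.07 (adjusted p = 0.52). *Des* was at 643, 678 and 651 CPM, above RPL3 OE by 0.76 and above control by 0.19. *Cdh15* was at 448, 426 and 457 CPM, above RPL3 OE by 0.76 and above control by 0.32. *Pdlim3* was at 36, 40.1 and 39.9 CPM (2.94 above RPL3 OE, adjusted p = 7.5e-22) and *Igfbp2* at 1152, 1233 and 1259 CPM (2.05 above RPL3 OE and 0.54 above control).

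Matrix and signalling genes fell into more than 1 pattern. *Cxcl12* was at 9.41, 13.6 and 13.6 CPM in RPL3L OE cultures, below RPL3 OE (adjusted p = 7.6e-18), and was not called against control (-0.41, adjusted p = 0.097). *Col1a1* was at 938, 966 and 927 CPM, below RPL3 OE by 0.87 and above control by 0.31. *Ccn2* was at 354, 318 and 351 CPM (-0.54 from RPL3 OE and 0.81 from control), and *Thbs1* at 946, 878 and 974 CPM (-0.43 and 0.70). These 2 rose in both overexpressions, and by more in RPL3 OE cells. *Myl9* was at 127, 123 and 137 CPM in RPL3L OE cultures and did not pass the test of the difference (0.08, adjusted p = 0.45), while it was above control in both (0.76 in RPL3 OE and 0.84 in RPL3L OE cells). Of the 46 ribosomal protein genes 25 were lower and 1 higher in RPL3L OE than in RPL3 OE cells, where 27.7% of all genes were called in either direction. Their median against control was -0.0645 in RPL3L OE and 0.017 in RPL3 OE cells.

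The called genes differed little from all genes in length and base composition. Median transcript length was 2910 bases over all tested genes, 3140 in those called higher and 3030 in those called lower, and the median GC content was 50.4%, 50% and 52%. Median depth was 420 counts in all, 788 in those called higher and 524 in those called lower. Among the genes changed by at least 1.5-fold the median depth was 61.4 counts for those higher and 77.5 for those lower.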

How the data were processed

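RNA-seq libraries of control, RPL3 OE and RPL3L OE C2C12 cells (3 each) and Ribo-seq libraries of the same groups (3 each) were analysed, grouped by their labels. The authors selected poly(A) RNA and made directional libraries for Illumina sequencing. The authors deposited read counts per transcript, which are not normalized. Per the labels, cutadapt, STAR and featureCounts were used with GRCm38.p6 and mm10, with no versions and no setting for strand given in the sources used here. Reads with several mappings were kept in the methods for Ribo-seq, by which isoforms and near-identical copies can share reads.

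The 47754 lines of the count table hold 23877 transcripts, since every line occurs 2 times, and 1 copy was used. GENCODE M21 named 23662 transcripts (23487 with the same version), all on the plus strand, and the 215 without a match (0.771% of RNA-seq counts) were left out. No column was left unassigned.

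Counts were fitted with edgeR 4.0.16 (R 4.3.3; glmQLFit and glmQLFTest, TMM, group only, 9 libraries of an assay, mean count of at least 10), with two-sided tests and adjusted p-values (Benjamini-Hochberg) over all genes. The threshold was 0.05. The authors used DESeq2, which is an alternative here. CPM values use the TMM-scaled library sizes of the tested genes. The code was tested on simulated data. Promoter sequences are from RefSeq (GRCm38.p6). Python 3.11.15, NumPy 2.4.6, pandas 2.3.3 and matplotlib 3.10.9 were used for lists and figures. Depth and the spread between 3 cultures limit the precision of each value.

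Named were *Rpl3*, *Rpl3l*, the 10 largest increases and 10 largest decreases among called genes with a mean of at least 100 counts and groups that do not overlap, the 4 largest each way below 100 counts, and up to 4 called members of each list in each direction, with every called myogenic regulator, though 3 genes that the rule picks are not reported here. Named beside these, after their values were seen, were *Met*, *Myog*, *Atf4*, *Ddit3*, *Tubb3* and some further called members of the matrix and actin lists. The members and lists were chosen with earlier results of these data known, and lists are described without a test.

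Alternatives were library totals, DESeq2 1.42.0 with its size factors and test, other filters, the 6 libraries alone, the replicate number as a block, all or summed transcripts, glmTreat of edgeR with a 1.2-fold change, and each library left out. Chosen after seeing the data were fits without the genes of chromosome 12, with unmatched transcripts, with counts thinned to the shallowest library, and the alternatives of the RPL3L OE comparisons.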

Additional observations from a re-analysis of the deposited data

Results flagged for a closer look

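Of 110 named genes 24 were called in opposite directions in RPL3 OE and RPL3L OE cells against the same control cultures, and the difference itself, RPL3L OE minus RPL3 OE, passed the direct test (edgeR) in each. The named genes were picked for their call in RPL3 OE against control cells, and both comparisons reuse those libraries. The choice therefore favours such differences, and the 24 are a list for a closer look and no share to be read. The direct test called 27.7% of all genes tested. The values are log2 differences. Lower in RPL3L OE than in RPL3 OE cells were *Slc16a3* (-1.39), *Pdk1* (-0.88), *Egr1* (-0.51), *Eif5* (-0.34), *Farsa* (-0.34) and *Rplp0* (-0.21). Among these, *Slc16a3* and *Pdk1* serve lactate export and the diversion of pyruvate from mitochondria.

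Higher in RPL3L OE than in RPL3 OE cells were the muscle genes *Des* (0.76), *Cdh15* (0.76), *Cdon* (0.82), *Itga7* (0.57), *Flnc* (0.36) and *Pdlim3* (2.94). The matrix genes *Nid1* (0.72) and *Loxl2* (1.52) were higher too, as were *Igfbp2* (2.05), *Robo1* (1.71), *Pde10a* (1.54), *Stmn4* (1.95), *Zfp600* (1.95), *Sox9* (0.66), *Hsf1* (0.33), *Sqle* (0.33) and *Ube2c* (0.30). *Art3* is among the 24, but it passed the filter only through the RPL3L OE cultures, in which it is high. With at most 2 counts in each RPL3 OE culture, its fitted difference of 5.27 depends on the prior count and is not read as a result. All of these comparisons share libraries, so that an error in the control or RPL3 OE cultures enters more than 1 of them. Groups of 3 were not searched for single outlying cultures.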

How the results depend on the processing

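The count of 999 called genes (519 higher, 480 lower) stayed within 1.5 times under other scalings, filters, DESeq2 (768), summed transcripts (779), thinned counts (780), the fit without chromosome 12 (909) and each library left out (713 to 1028; 384 to 538 higher and 329 to 490 lower). It moved with all transcripts (2323; 1174 higher, 1149 lower), where more features were tested, and with glmTreat at 1.2-fold (207; 94 and 113). With the replicate number as a block, 947 genes were called (491 higher, 456 lower), and 3 of 110 named genes lost their call, but the numbers share no pairing in the data, with correlations of -0.0123, -0.0122 and -0.0332 between the deviations of same-numbered control and RPL3 OE cultures from their group means. Library totals in place of TMM moved the median of all genes by -0.012. None of the 110 named genes reversed, and 46 kept their call in every alternative with a value, while glmTreat dropped 62, leaving out 1 library 0 to 18 (18 without RPL3 OE replicate 3, 17 each without control replicate 3 and RPL3 OE replicate 1), summed transcripts 13, thinning 9 and DESeq2 8.

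RPL3L OE against RPL3 OE gave 1586 genes, 1263 to 1621 with a library left out, 3899 with all transcripts and 333 with glmTreat. RPL3L OE against control gave 570 genes, 354 to 575 with a library left out, 379 with DESeq2, 362 with summed transcripts, 1336 with all transcripts and 56 with glmTreat. Ribo-seq (294 genes higher and 369 lower) gave 458 to 638 with a library left out and 302 with DESeq2. The causes were not tested.

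List medians (log2) that moved by more than the spread between cultures were, with all transcripts, chaperones -0.0256, matrix 0.137, glycolysis 0.145, integrated stress response 0.0548, myogenic regulators 0.16 (from -0.256) and ribosome assembly 0.0375. A mean of at least 50 counts gave the stress response -0.00614 and p53 targets -0.106. At 100 counts they were -0.0252 and -0.071, contractile genes -0.39 and matrix 0.249. Library totals gave cell cycle -0.0262 and chromosome 12 0.157, and without chromosome 12 the matrix list was at 0.215.

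With each library left out, medians ranged from -0.0312 to 0.0039 for cell cycle, -0.0509 to -0.024 for chaperones, -0.365 to 0.0282 for contractile genes, 0.177 to 0.221 for matrix, -0.0993 to -0.00894 for immediate-early genes, 0.0191 to 0.0534 for the stress response, -0.327 to -0.179 for myogenic regulators, -0.175 to -0.0874 for p53 targets, -0.0212 to 0.0104 for the respiratory chain, 0.0299 to 0.0556 for translation factors and 0.168 to 0.179 for chromosome 12. Without RPL3 OE replicate 1 *Art3* had 0 counts left in RPL3 OE cells, and without RPL3 OE replicate 3 *Mmp10* was at -4.08. Depth limits genes with few counts.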
